A study of Agaricus bisporus with 16 samples.

Results

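In compost colonised by strain 245 AMA-7 of the button mushroom Agaricus bisporus, 27 genes differed at least 2-fold between pinning and the first flush while differing little in 3 other strains. They were chosen by their change in log2(mean FPKM + 1), day 39 minus day 27. FPKM are fragments per kilobase, a level corrected for gene length and library size. The change had to be at least 1 in size in 245 AMA-7 and under 0.4 in A15, 219 30P and 065 BP-8. The highest of the 8 group means had to reach 10 FPKM. Of 9520 genes listed for every library, 20 met the rule with a higher level on day 39 and 7 with a lower one.

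The groups were 245 AMA-7 on day 39 and on day 27 after spawning, and likewise A15, the commercially cultivated strain, 219 30P and 065 BP-8. Day 39 was the first flush of mushrooms and day 27 the pinning stage. All strains grew under a casing layer on the same kind of compost, made from wheat straw, horse and chicken manure and gypsum, and each group had 2 libraries, 16 in all. RNA came from bulk compost, so that fewer living hyphae of one kind and less transcript per hypha cannot be told apart. The labels do not say whether duplicates came from separate crates. The p-values therefore rest on the spread of duplicates, part of which may be technical.

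At pinning the mycelium in the compost begins to supply small primordia in the casing, and during the flush it feeds growing mushrooms. Of the 27 genes, 26 carry only a locus tag in the RefSeq table of the assembly Agabi_varbisH97_2, so no function is given for them here. The exception is hspE (AGABI2DRAFT_196038), by its symbol a heat shock gene. Heat shock proteins are chaperones that keep other proteins folded, and many of them are made in larger amounts under stress. The gene abl, which has the symbol of the A. bisporus lectin, is the only 1 of 7 fruiting-body symbols looked for that the table holds. In 245 AMA-7 it stood at 27.9 and 51.6 FPKM on day 39, against 22.1 and 21.3 FPKM on day 27, and its part in the changes below was not tested. On day 39 it reached 108 and 218 FPKM in A15 and 207 and 264 FPKM in 065 BP-8, against 23.2 to 30.4 FPKM in A15 and 4.53 to 8.92 FPKM in 065 BP-8 on day 27. In 219 30P it stayed at 2.60 to 4.40 FPKM.

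The deposited values summed to between 832823 and 913010 FPKM per library. The value of 1 read per kilobase of gene was taken as 0.122 to 0.138 FPKM, with gene lengths that include introns. It is the median of low values inside a window set beforehand. The window largely fixes it, so numbers of reads are rough. By that estimate the thinnest value of any of the 27 genes rested on about 7.87 reads. It was AGABI2DRAFT_78276 in replicate 2 of 245 AMA-7 on day 27. The duplicates of 065 BP-8 on day 27 lay furthest apart, with 12.5% of genes over 1.5-fold apart and 5 of the 27 among them. The duplicates of 245 AMA-7 had 3.21% on day 39 and 4.82% on day 27, with 1 of the 27 genes on each day.

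The values that chose the genes are given as a description, with no test. A change of at least 1 in 245 AMA-7, together with the required level, was met by 1979 genes, and 783 genes of that level changed by under 0.4 in all 3 other strains. The 27 genes were 1.36% of the first set and 3.45% of the second. The same rule turned on each of the other strains gave 34 genes for A15, 59 for 219 30P and 10 for 065 BP-8. Just inside the limit in 245 AMA-7 lay AGABI2DRAFT_62238 at 1.03 and AGABI2DRAFT_149045 at -1.06. Just outside lay AGABI2DRAFT_190529 at -0.97 and AGABI2DRAFT_192284 at -0.96. On the limit for the other strains, AGABI2DRAFT_179107 (largest change 0.39) and AGABI2DRAFT_177416 (0.39) were just inside. AGABI2DRAFT_193142 and AGABI2DRAFT_191017 (both 0.40) were just outside. On the limit for the level, AGABI2DRAFT_74449 (10.9 FPKM) and AGABI2DRAFT_189504 (11.8 FPKM) were just inside, and AGABI2DRAFT_146937 (9.81 FPKM) and AGABI2DRAFT_196434 (7.87 FPKM) just outside.

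**Figure D1:**
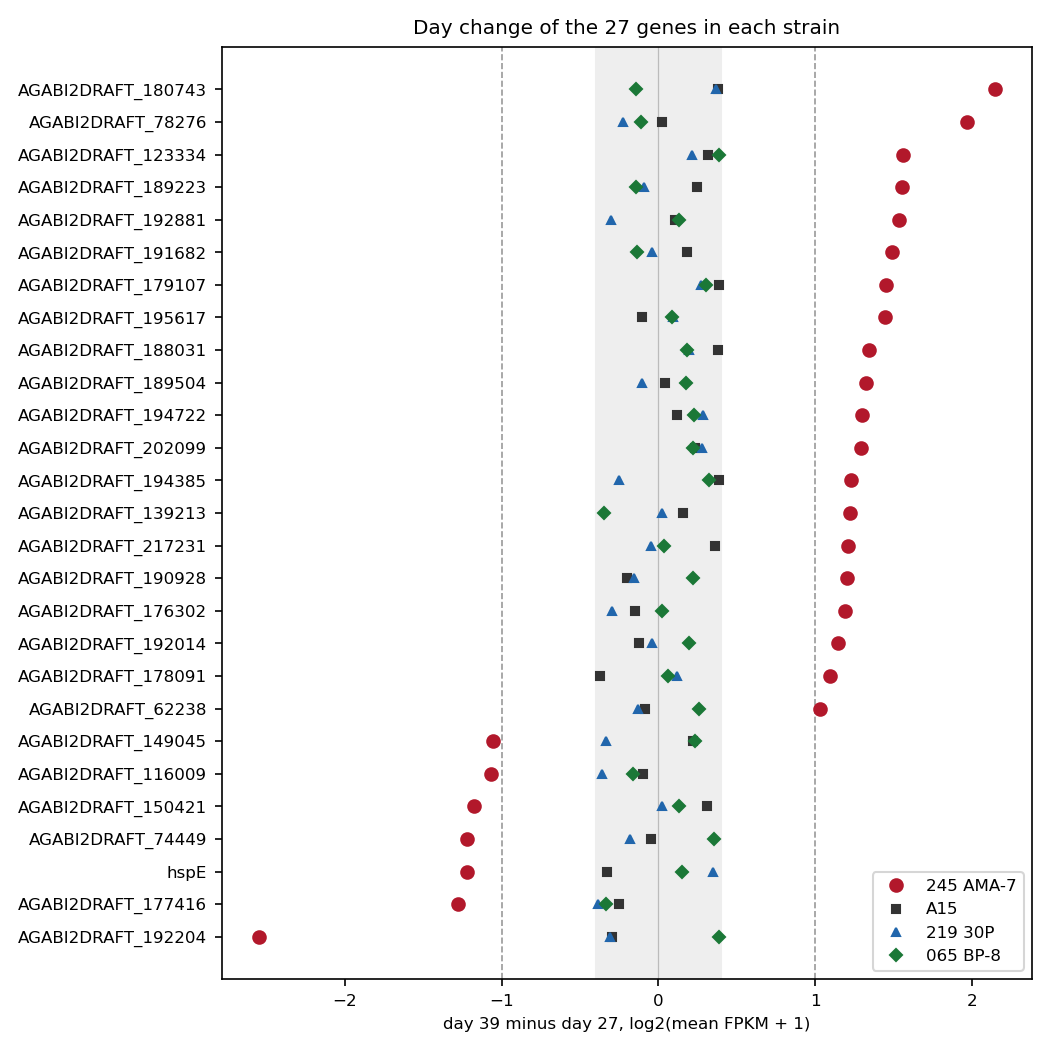
Day 39 minus day 27 in log2(mean FPKM + 1) for the 27 genes (rows) in each strain (symbols), with the band of 0.4 either side of 0 in grey and dashed lines at -1 and 1. Changes in 245 AMA-7 ran from -2.55 to 2.15, while the rule holds the other strains inside the grey band.

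Among the 20 genes that were higher on day 39, the change in 245 AMA-7 had a median of 1.31 and reached 2.15. AGABI2DRAFT_180743 changed most. It had 26.9 and 25.8 FPKM on day 39, against 6.05 and 4.28 FPKM on day 27, a ratio of means of 5.10. In the 12 libraries of the other strains it lay between 7.65 and 15.6 FPKM, so 245 AMA-7 was outside that span on both days. AGABI2DRAFT_78276 had 22.8 and 12.04 FPKM on day 39 and 4.37 and 3.03 FPKM on day 27, a ratio of 4.71. Its duplicates on day 39 were wide apart, though both exceeded day 27. The next changes in size on the log2 scale were AGABI2DRAFT_123334 (ratio 3.17), AGABI2DRAFT_189223 (3.09) and AGABI2DRAFT_192881 (2.90).

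The most abundant of these 20 genes was AGABI2DRAFT_192881. It had 1036 and 1044 FPKM in 245 AMA-7 on day 39, against 371 and 346 FPKM on day 27. The other strains lay between 326 and 602 FPKM, so 245 AMA-7 was inside that span on day 27 and above it on day 39. AGABI2DRAFT_139213 came next, with 649 and 596 FPKM on day 39 and 268 and 266 FPKM on day 27. Here the day 27 level was the low one, below the 364 FPKM that was the lowest in any other library. AGABI2DRAFT_190928 (229 and 227 FPKM on day 39, 109 and 87.4 FPKM on day 27) and AGABI2DRAFT_62238 (164 and 144 FPKM, against 73.6 and 76.0 FPKM) followed.

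Several genes of this group were of low level. AGABI2DRAFT_194722 had 6.89 and 5.75 FPKM in 245 AMA-7 on day 39, against 2.01 and 1.94 FPKM on day 27. In A15 it had 14.1 and 12.6 FPKM on day 39 and 11.7 and 12.7 FPKM on day 27. The day 39 level of 245 AMA-7 thus stayed below A15 and inside the span of 219 30P and 065 BP-8. AGABI2DRAFT_194385 had 13.7 and 14.3 FPKM on day 39 and 6.28 and 4.47 FPKM on day 27, and on day 39 it lay below 219 30P (21.3 and 18.3 FPKM) and 065 BP-8 (17.9 and 19.7 FPKM). The other 10 genes changed by 1.09 to 1.49, and they were genes whose 245 AMA-7 means on day 39 ran from 11.8 FPKM (AGABI2DRAFT_189504) to 151 FPKM (AGABI2DRAFT_191682).

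Small changes in the other strains need not be 0. For 5 of the 20 genes the change had the same sign in all 4 strains. In AGABI2DRAFT_123334 it was 1.56 in 245 AMA-7, with 0.32 in A15, 0.22 in 219 30P and 0.39 in 065 BP-8. In AGABI2DRAFT_179107 it was 1.45, with 0.39, 0.27 and 0.30. No gene of the 20 had a negative change in all 3 other strains. Among the 7 genes lower on day 39, 2 had a negative change in all 4 strains. In AGABI2DRAFT_177416 it was -1.28 in 245 AMA-7, with -0.25 in A15, -0.39 in 219 30P and -0.33 in 065 BP-8. In AGABI2DRAFT_116009 it was -1.07, with -0.10, -0.36 and -0.16. Only AGABI2DRAFT_150421 of the 7 had a positive change in all 3 other strains.

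Of the 7 genes lower on day 39, AGABI2DRAFT_192204 changed most. It had 18.6 and 23.6 FPKM in 245 AMA-7 on day 39, against 158 and 99.3 FPKM on day 27, a ratio of 6.09 between day 27 and day 39. A15 had 164 and 195 FPKM on day 39 and 182 and 259 FPKM on day 27, and 065 BP-8 stayed between 46.7 and 71.3 FPKM. The duplicates of 245 AMA-7 on day 27 were apart by more than 1.5-fold, but the days did not overlap.

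The heat shock gene hspE had 241 and 247 FPKM in 245 AMA-7 on day 39, against 542 and 599 FPKM on day 27. The other strains lay between 298 and 539 FPKM, so 245 AMA-7 was above all of them at pinning and below all of them at the first flush. A15 had 434 and 385 FPKM on day 39 and 539 and 490 FPKM on day 27. In 219 30P the order was the other way, with 385 and 410 FPKM on day 39 and 314 and 311 FPKM on day 27. The other heat shock symbols, hspA to hspD, are no members of the group. All 4 fell in 245 AMA-7 (limma, BH-adjusted p of at most 0.00022), with a median change of -1.28, against 0.16 for all genes tested. Over all genes tested, 25.3% passed as lower on day 39 in 245 AMA-7. hspC had -1.71 in 245 AMA-7, with -1.35 in A15, -1.34 in 219 30P and -1.67 in 065 BP-8. hspD had -0.73 in 245 AMA-7, with -0.28, -1.20 and -0.84 in the others. hspA changed by -0.85 in 245 AMA-7, with -0.36 in A15, -0.98 in 219 30P and -0.97 in 065 BP-8. For hspB the change was -1.74 in 245 AMA-7, with -1.13 in A15, 1.45 in 219 30P and 1.54 in 065 BP-8. The signs in 245 AMA-7 stayed negative for all 5 heat shock genes under quantile normalization and median-ratio scaling. With median-ratio scaling hspE changed by -0.58 in A15 and by 0.45 in 219 30P, both past the limit of the rule and in opposite directions.

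AGABI2DRAFT_150421 had 20.4 and 23.5 FPKM in 245 AMA-7 on day 39, against 42.1 and 59.7 FPKM on day 27. In A15 it had 63.5 and 59.2 FPKM on day 39 and 54.9 and 43.8 FPKM on day 27. In 219 30P and 065 BP-8 every library lay between 15.6 and 23.1 FPKM. The gene thus stood near the A15 level at pinning in 245 AMA-7, and near the level of 219 30P and 065 BP-8 at the first flush. AGABI2DRAFT_149045 was the most abundant of the 7, with 309 and 338 FPKM on day 39 and 675 and 673 FPKM on day 27. The other 3 were AGABI2DRAFT_177416 (ratio 2.71 between day 27 and day 39), AGABI2DRAFT_74449 (2.65) and AGABI2DRAFT_116009 (2.15).

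**Figure D2:**
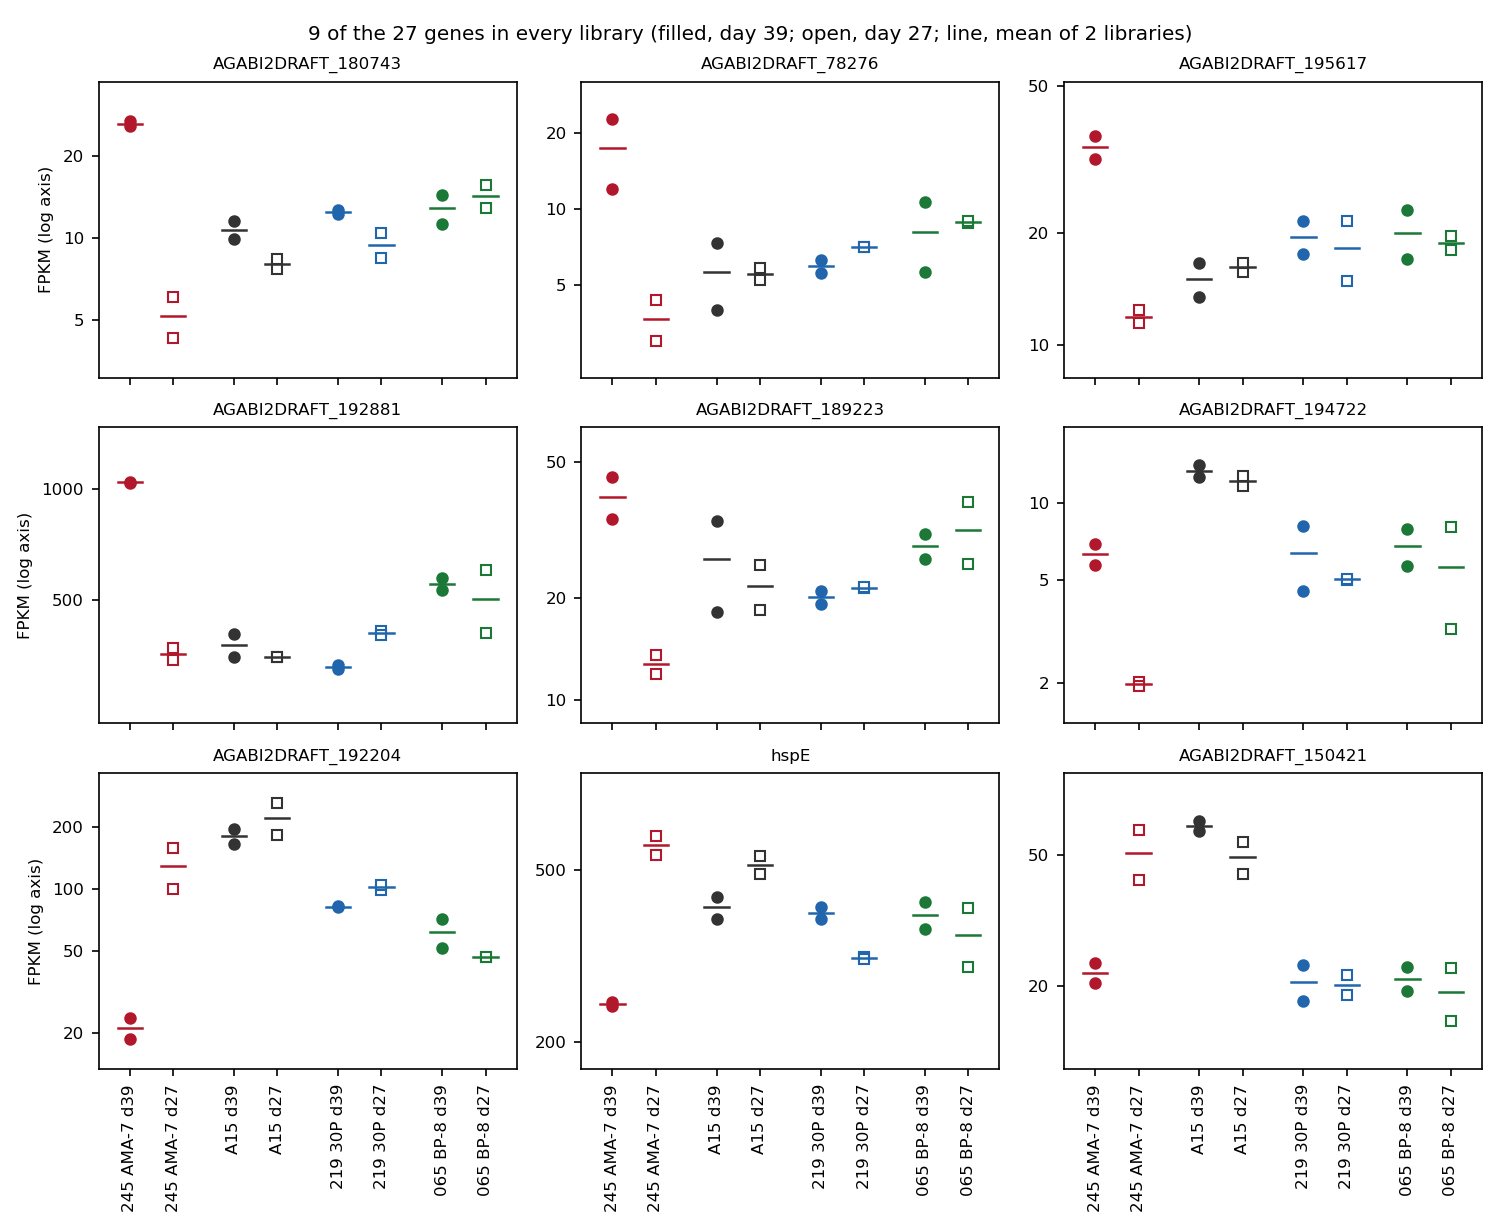
FPKM on a log axis in every library for 9 of the 27 genes, with strains along the x axis, day 39 filled and day 27 open, and a line at the mean of the 2 libraries. In AGABI2DRAFT_180743 the libraries of 245 AMA-7 lay at 25.8 and 26.9 FPKM on day 39 and at 4.28 and 6.05 FPKM on day 27, outside the 7.65 to 15.6 FPKM of the other strains.

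The duplicates of the days did not overlap in 245 AMA-7 for any of the 27 genes. Over the 8818 genes that averaged at least 1 FPKM, 50.1% had both day 39 libraries above both day 27 libraries and 34.4% had both below. All 27 passed the day contrast in 245 AMA-7 (limma, BH-adjusted p under 0.05), as did 63.0% of all genes tested, 37.8% higher and 25.3% lower. The rule used this contrast, so nothing is read from these counts. The split of those calls depended on scaling: 59.9% were higher on day 39 in the values as deposited, 48.5% after median-ratio scaling and 49.0% after quantile normalization. For all genes tested, the median change in 245 AMA-7 was 0.16 before median-ratio scaling and 0.00 after it.

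The rule does not say on which day 245 AMA-7 stood apart from the other strains. On day 39 both libraries of 245 AMA-7 exceeded all 6 libraries of the other strains in 17 of the 20 genes that were higher on that day. On day 27 both lay below all 6 in 14 of the 20. Over all genes tested, 19.1% lay above all 6 on day 39 and 16.1% below all 6 on day 27. Since a day change particular to 245 AMA-7 forces a distance on at least 1 day, these shares describe the genes and are no test. In 11 genes both held, so that 245 AMA-7 passed from the bottom of the strains to the top. For joint placings over both days the share of all genes was not computed, so this count and those that follow are a description. In 6 genes only the day 39 level was outside. Examples of these 6 are AGABI2DRAFT_192881, AGABI2DRAFT_188031 and AGABI2DRAFT_178091. In the other 3 only the day 27 level was outside: AGABI2DRAFT_194722, AGABI2DRAFT_194385 and AGABI2DRAFT_202099.

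Of the 7 genes that were lower on day 39, 5 had both libraries of 245 AMA-7 below all 6 others on day 39, against 13.3% of all genes tested. On day 27, 2 of the 7 were above all 6, against 17.5% of all genes. Those 2 were hspE and AGABI2DRAFT_116009, which were outside on both days. AGABI2DRAFT_192204 stood lowest, at a log2 difference of -2.14 from the mean of the other strains on day 39, with 0.33 on day 27. AGABI2DRAFT_150421 and AGABI2DRAFT_74449 were outside on neither day.

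**Figure D3:**
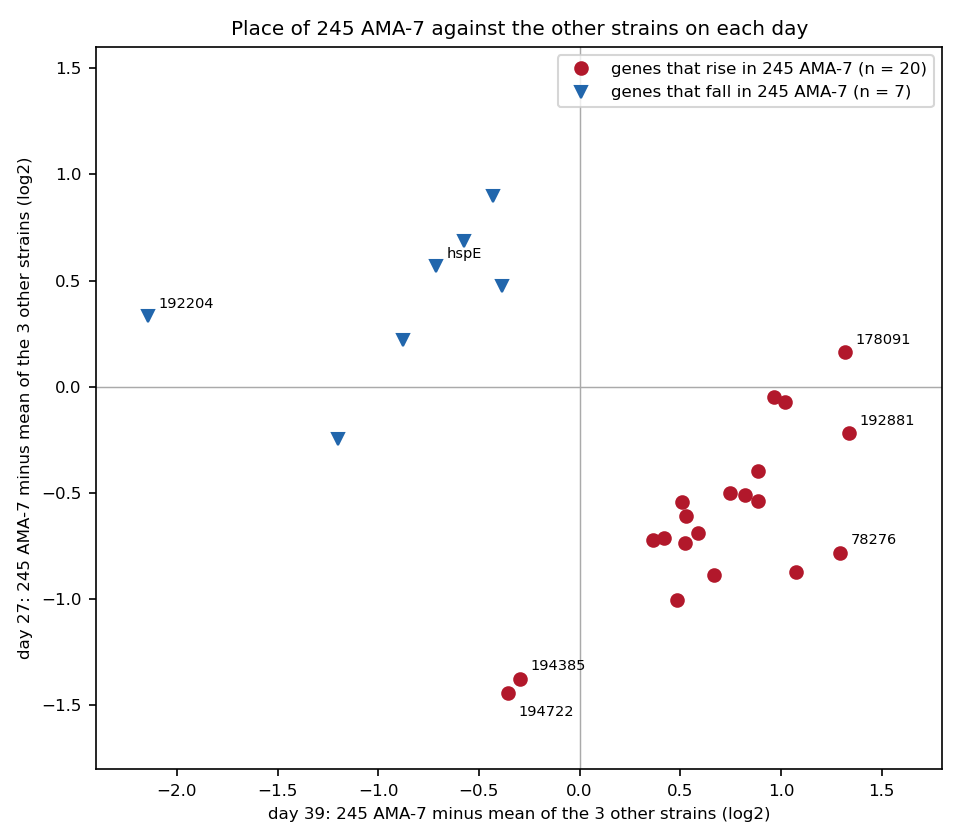
Log2 difference of 245 AMA-7 from the mean of the 3 other strains, on day 39 (x axis) and on day 27 (y axis), for the 20 genes higher on day 39 (circles) and the 7 lower (triangles). The circles had medians of 0.71 on day 39 and -0.65 on day 27, and the triangles -0.71 and 0.47.

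Whether 245 AMA-7 differed from the other strains in the level of these genes over both days together was tested with limma on log2(FPKM + 1). The mean over days is a quantity that a day change leaves free, but the rule did use level through its limit of 10 FPKM. AGABI2DRAFT_178091, AGABI2DRAFT_78276 and AGABI2DRAFT_189504 reached that limit only in 245 AMA-7, which favours a higher level there, and AGABI2DRAFT_194722 only in A15, which favours a lower level in 245 AMA-7. The other 23 genes reached it both in 245 AMA-7 and in another strain, and 7 of these 23 passed, 3 higher and 4 lower. Of the 27 genes, 9 passed, 4 of them higher and 5 lower in 245 AMA-7 than in the mean of the other strains. Over all 8818 genes tested 55.0% passed, 29.2% higher and 25.9% lower. The median difference was -0.02 for the 27 genes and 0.02 for all genes, and the median size of the difference was 0.18 and 0.26. The other 18 genes had estimates between -0.25 and 0.26, and their 95% confidence intervals reached from -0.57 to 0.64. For those genes a difference in overall level of that size is not excluded by these libraries.

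The 4 genes with a higher overall level all belonged to the 20 that were higher on day 39. AGABI2DRAFT_192881 averaged 699 FPKM in 245 AMA-7 and 421 FPKM in the others, a log2 difference of 0.57 ± 0.08 (SE; limma, 4 libraries against 12, BH-adjusted p = 0.000105). AGABI2DRAFT_188031 differed by 0.48 ± 0.11 and AGABI2DRAFT_62238 by 0.46 ± 0.07. Against 065 BP-8 alone none of these genes passed. There AGABI2DRAFT_192881 differed by 0.22, AGABI2DRAFT_188031 by 0.23 and AGABI2DRAFT_62238 by 0.13 (limma, adjusted p of 0.0884, 0.18 and 0.208). Each of them passed against both remaining strains. AGABI2DRAFT_178091 averaged 11.7 FPKM in 245 AMA-7 and 6.44 FPKM in the others, a difference of 0.75 that is given as a description, since the level limit admitted this gene through 245 AMA-7 alone. In these 4 genes the level of 245 AMA-7 on day 27 was within the span of the other strains over both days. Among the day 27 libraries alone, replicate 2 of 245 AMA-7 lay just below the others for AGABI2DRAFT_192881 (345.56 FPKM, against at least 350.85 FPKM).

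Of the 5 genes with a lower overall level, 2 were among the 20. AGABI2DRAFT_194722 averaged 4.15 FPKM in 245 AMA-7 and 8.22 FPKM in the others, a difference of -0.87 that is likewise a description, since A15 alone carried it past the level limit. Without the A15 libraries the difference was -0.53 and did not pass (limma, adjusted p = 0.0546). AGABI2DRAFT_194385 averaged 9.67 FPKM in 245 AMA-7 and 17.0 FPKM in the others (-0.84 ± 0.11, limma adjusted p = 4.38e-05). The others were AGABI2DRAFT_192204 (-0.92 ± 0.13), AGABI2DRAFT_177416 (-0.72 ± 0.09) and AGABI2DRAFT_149045 (-0.33 ± 0.06), which were lower on day 39. Without the A15 libraries AGABI2DRAFT_192204 differed by -0.42 and AGABI2DRAFT_177416 by -0.29, and both still passed. For hspE the overall level did not pass, with 407 FPKM in 245 AMA-7 and 397 FPKM in the others (-0.07, 95% interval -0.24 to 0.10).

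**Figure D4:**
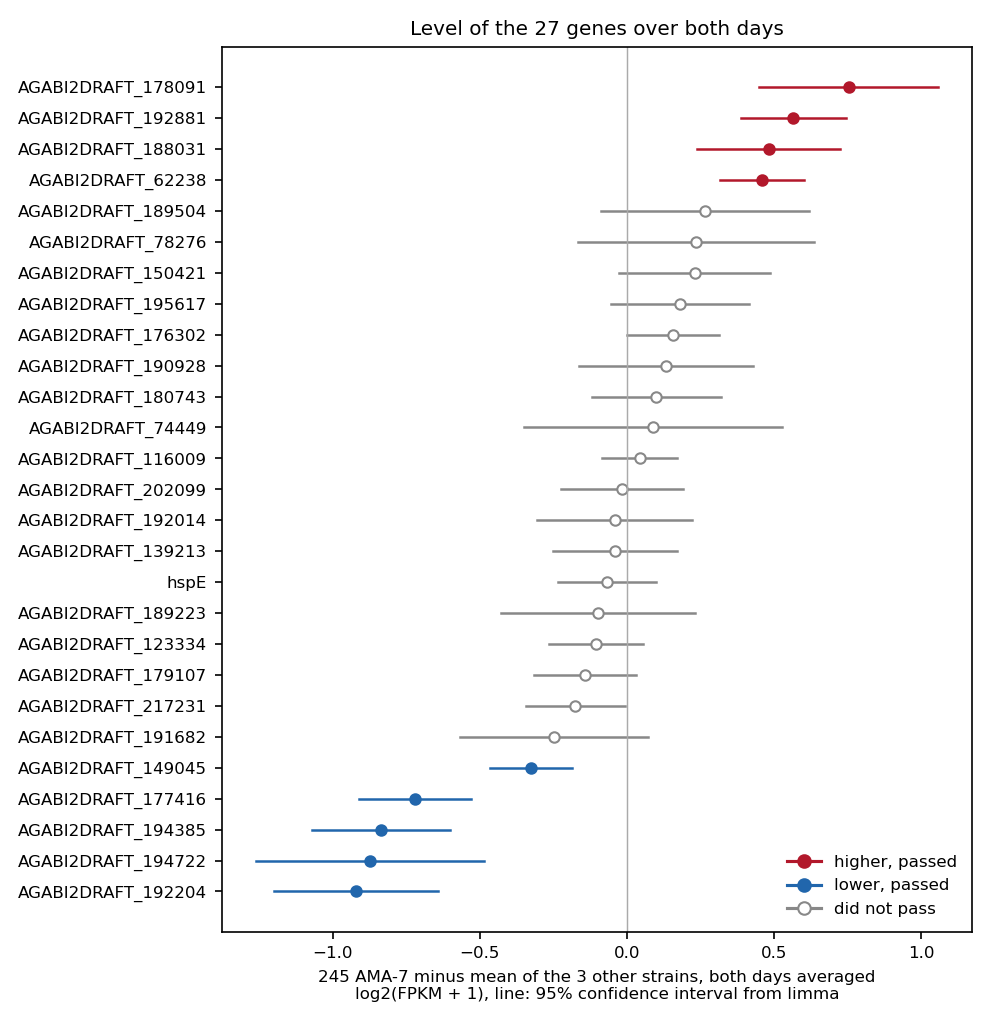
Log2 difference between 245 AMA-7 and the mean of the 3 other strains with both days averaged (x axis), with the 95% confidence interval from limma, for the 27 genes. The 4 higher genes lay between 0.46 and 0.75, the 5 lower ones between -0.92 and -0.33, and 18 did not pass.

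Set against each strain alone, 12 of the 27 genes passed against A15, 6 higher and 6 lower. Over all genes tested it was 55.7%, 28.4% higher and 27.3% lower. Against 219 30P 11 passed, 5 higher and 6 lower, and over all genes 54.6%, 30.0% higher and 24.6% lower. Against 065 BP-8 6 passed, 2 higher and 4 lower, and over all genes 48.4%, 24.6% higher and 23.8% lower. These comparisons share the libraries of 245 AMA-7. The lower calls against A15 include AGABI2DRAFT_194722, which only A15 carried past the level limit. The higher calls against 219 30P and against 065 BP-8 include AGABI2DRAFT_178091, which only 245 AMA-7 carried past it. The limit favours these calls, so they are a description and no test. The count against 065 BP-8 was 13 without replicate 2 of 065 BP-8 on day 27. The files of A15 list fewer genes than the others, and strain and table cannot be told apart there. AGABI2DRAFT_177416 was below A15 by a log2 difference of -1.57 ± 0.11 (limma, adjusted p = 2.1e-07), with 9.11 FPKM in 245 AMA-7 and 26.5 FPKM in A15. AGABI2DRAFT_192204 was below A15 by -1.91 ± 0.16 (adjusted p = 9.82e-07), with 74.8 FPKM in 245 AMA-7 and 200.2 FPKM in A15. hspE was below A15 by -0.30 ± 0.09 (adjusted p = 0.018).

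The 3 other strains also differed from each other in the level of these genes over both days. An F test among A15, 219 30P and 065 BP-8 passed for 19 of the 27, against 69.8% of all genes tested, a share near the background. The widest range was that of AGABI2DRAFT_192204, with 200.2 FPKM in A15, 91.6 FPKM in 219 30P and 54.1 FPKM in 065 BP-8 (3.66-fold on the log scale of the test, adjusted p = 2.74e-06). AGABI2DRAFT_177416 spanned 2.85-fold and AGABI2DRAFT_150421 2.67-fold, both highest in A15. AGABI2DRAFT_194722 (2.09-fold) was highest in A15 too. It is counted among the 19, but its range is a description, since A15 alone carried it past the level limit. AGABI2DRAFT_178091 (2.01-fold) was lowest in 065 BP-8. At the other end AGABI2DRAFT_217231 spanned 1.08-fold (adjusted p = 0.505), with 55.5 FPKM in A15, 56.2 FPKM in 219 30P and 59.6 FPKM in 065 BP-8.

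In the gene order of the reference, only AGABI2DRAFT_78276 and AGABI2DRAFT_195617 among the 27 lie next to each other. AGABI2DRAFT_195617 had 31.7 and 36.8 FPKM in 245 AMA-7 on day 39, against 11.4 and 12.4 FPKM on day 27. The genes on either side of the pair did not follow it: AGABI2DRAFT_211555 changed by 0.12 (limma, adjusted p = 0.717) and AGABI2DRAFT_195618 fell by 0.41 in 245 AMA-7. Of the 51 tested genes that adjoin a member without being one, 32 passed the day contrast in 245 AMA-7, or 62.7%, against 63.0% of all genes. Of those 32, 20 changed in the direction of the member and 12 in the opposite one. Most members were higher on day 39, as were 59.9% of all genes that passed. Nothing is therefore read from this split. At least 2-fold were 13 of the 51, and 24.7% of all genes tested passed with that size, so neighbours as a whole were near the background.

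A run of genes around AGABI2DRAFT_189223 was chosen for its values after they were seen. AGABI2DRAFT_189223 had 45.2 and 33.9 FPKM in 245 AMA-7 on day 39, against 11.96 and 13.6 FPKM on day 27. The gene before it, AGABI2DRAFT_189222, rose by 1.57 ± 0.17 (limma, adjusted p = 7.55e-06), to a mean of 49.2 FPKM on day 39, against 15.9 FPKM on day 27. The gene after it, AGABI2DRAFT_196434, rose by 1.02 ± 0.15 (adjusted p = 8.59e-05), with 7.87 FPKM on day 39 and 3.39 FPKM on day 27. In the other strains AGABI2DRAFT_189222 changed by 0.47 in A15, 0.16 in 219 30P and 0.09 in 065 BP-8, and AGABI2DRAFT_196434 by at most 0.16 in size in each. Each missed the rule on 1 limit, the change in A15 for AGABI2DRAFT_189222 and the level for AGABI2DRAFT_196434. AGABI2DRAFT_189222 and AGABI2DRAFT_189223 overlap in the reference. How reads were divided between them is not given in the sources used here, so their changes may not be separate. No other gene of the 27 overlaps a direct neighbour.

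**Figure D5:**
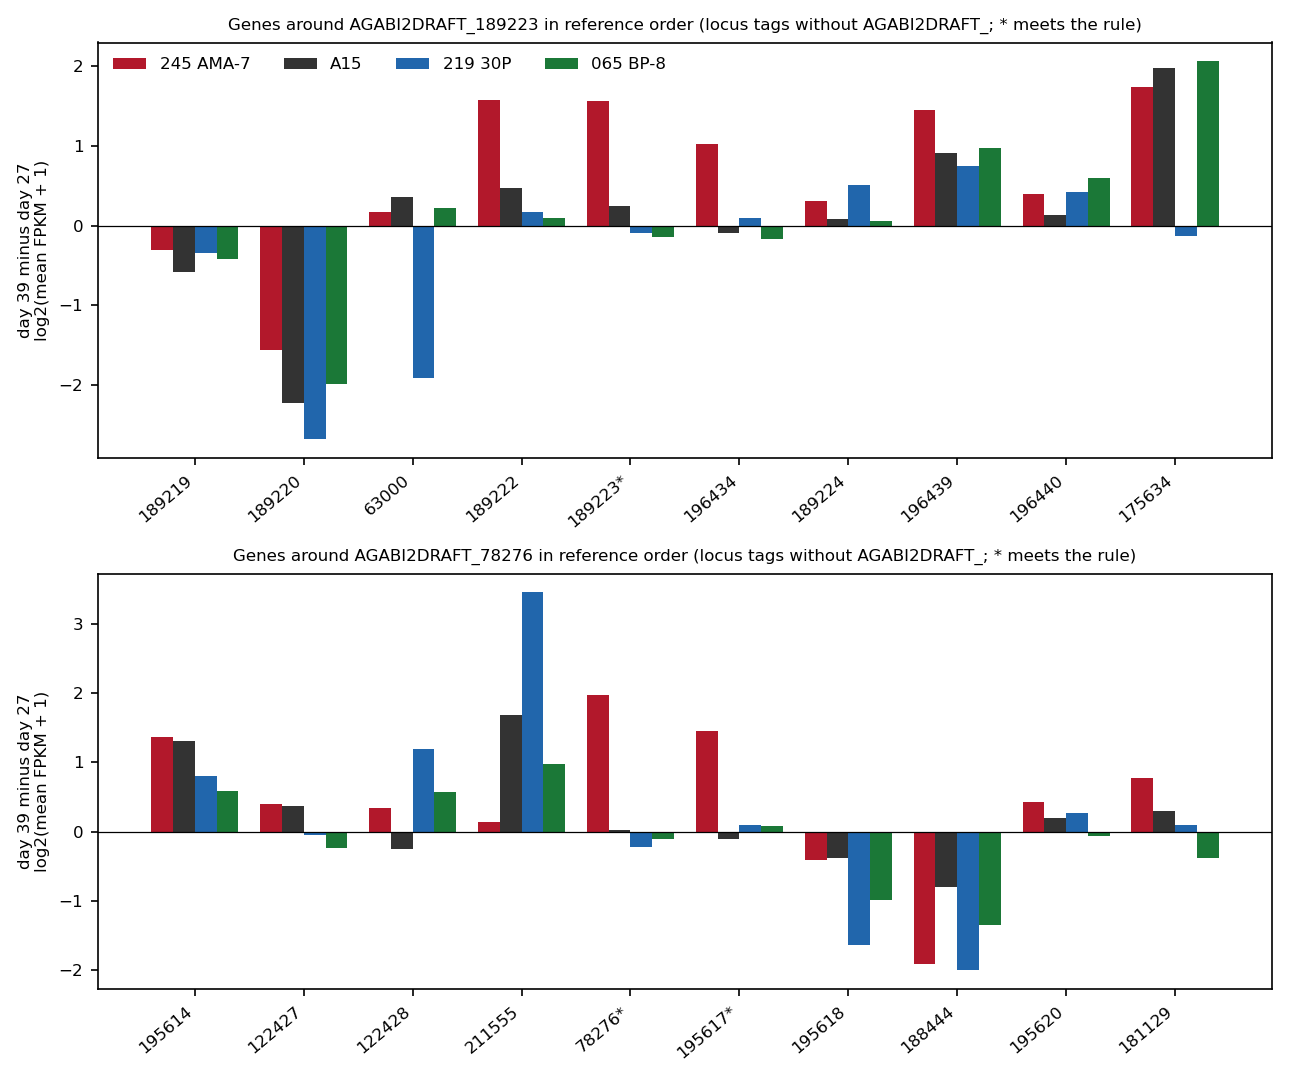
Bars give the day change in log2(mean FPKM + 1) for each strain, for genes in reference order around AGABI2DRAFT_189223 (top) and AGABI2DRAFT_78276 (bottom). In 245 AMA-7 the change was 1.57, 1.56 and 1.02 for 3 genes in a row in the top panel, and 1.97 and 1.45 for a pair in the bottom panel.

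The 27 genes were near all others in median length. Their median length with introns was 1665 bases, against 1600 bases for all genes tested that have one, with a span of 275 bases (AGABI2DRAFT_195617) to 4526 bases (AGABI2DRAFT_217231). Their mean over all libraries had a median of 25.2 FPKM, against 29.1 FPKM for all genes tested.

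Membership rested on close limits. With each of the 16 libraries left out in turn, between 20 and 27 of the 27 genes met the rule again, and 3 did every time: AGABI2DRAFT_195617, AGABI2DRAFT_176302 and AGABI2DRAFT_116009. With median-ratio scaling 33 genes met it, 21 higher and 12 lower on day 39, and 18 of the 27 were among them. With quantile normalization there were 33, 19 higher and 14 lower, and 15 of the 27 were among them. The median change of all genes tested in A15, one of the strains held to the limit of 0.4, was 0.24 in the values as deposited and 0.00 after median-ratio scaling. The direction of the day change in 245 AMA-7 was kept by all 27 genes under these alternatives. The rule chose them for a change of at least 1, so a kept sign is no test. Of 243 re-estimates of these changes over all alternatives, 45 moved by more than the spread of the duplicates.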

How the data were processed

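RNA sequencing values of 16 libraries were analysed, 2 for each of 8 groups of strain and day, grouped by sample title. BWA, Bowtie and RSEM are named per the submitters' processing notes, and their versions, their roles and the genome build were not given there. The deposited values were taken to be FPKM. This unit was inferred from 2-decimal values whose sums differ between libraries. The A15 files list 9520 genes and the others 10438; 9457 of the 9520 IDs, and all 27 members, matched locus tags of the reference table, which gives names and gene order here.

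Tests used limma 3.58.1 in R 4.3.3 (limma-trend on log2(FPKM + 1), all 16 libraries, 1 mean per group) on 8818 genes that averaged at least 1 FPKM, with Benjamini-Hochberg (BH) adjustment and a threshold of 0.05. The fit was tested on simulated data. Folds are on the log2(FPKM + 1) scale and understate the change of low genes. Python 3.11.15, pandas 2.3.3, numpy 2.4.6 and matplotlib 3.10.9 did the rest. Depth per library was only estimated from low values inside a window set beforehand, so no counting interval is given.

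The members and lists were chosen with earlier results of these data known. Genes were named for a symbol, a large day change, a high level, a small p for the overall level, an adjoining member or a place at a limit of the rule. Other genes, singled out in small counts, as an example or as an extreme, were named after their values were seen. Replicate numbers were not treated as pairs: deviations of same-numbered libraries had correlations of -0.27 to 0.17 over 28 group pairs. Alternatives were other pseudocounts, filters, scalings, limits of the rule, array weights, a replicate block, and each library or all A15 libraries left out. Protein and promoter sequences were not analysed here.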

Additional observations from a re-analysis of the deposited data

Results flagged for a closer look

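AGABI2DRAFT_58707 is one of 918 genes listed for the other strains but not in the A15 files, and so stood outside every comparison above. Over the 3 strains with a value it met the same limits, with a day change of 1.34 in 245 AMA-7, 0.07 in 219 30P and -0.23 in 065 BP-8. It had 76.1 and 76.8 FPKM in 245 AMA-7 on day 39, against 29.0 and 30.1 FPKM on day 27. In the 8 libraries of 219 30P and 065 BP-8 its highest value was 0.34 FPKM and 6 were listed at 0, so a small change there says little. Only 8 of the 918 genes reached the level limit, and AGABI2DRAFT_58707 was the only one of these to meet the other limits. Its level in A15 was not analysed here.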

How the results depend on the processing

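The number of genes that meet the rule (27, 20 higher and 7 lower on day 39) moved most without the A15 libraries, where 123 genes met it, 90 higher and 33 lower, by construction with 1 condition fewer. A limit of 0.3 for the other strains left 11, 11 higher and 0 lower, and a limit of 0.5 gave 56, 38 and 18. Lower genes numbered 12 with median-ratio scaling, 14 with quantile normalization and 11 with a limit of 0.9 in 245 AMA-7; the cause was not tested. With each library left out, the rule found 23 to 29 genes, 16 to 22 higher and 6 to 11 lower, with 11 lower without replicate 1 of 065 BP-8 on day 39. The genes among the 27 that passed against 065 BP-8 in overall level numbered 5 to 13 with a library left out, and those against the mean of the other strains 9 to 11. Among the 3 other strains 4031 genes passed without A15, where 2 strains were compared, against 6153. The log2 difference of hspE in 245 AMA-7 from the mean of the other strains over both days did not pass. It was 0.047 without A15 and -0.07 with it. With the replicate block 10 of the 27 genes passed in overall level, against 9. The replicate block moved no count listed here by more than 1.5 times. A comparison with a shorter promoter window was not run, since promoter sequences were not used here. Members of low level are limited by depth. By the rough estimate from low values, about 7.87 to 14.1 reads lay behind the lowest values of the 3 thinnest genes.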

Other observations

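Without the A15 libraries 97 further genes met the rule in 245 AMA-7 against 219 30P and 065 BP-8. In A15 89 of these 97 changed in the direction of 245 AMA-7, 47 of them at least 2-fold, and 8 changed the other way. These genes were chosen on the same day contrasts and met the rule only without A15. A change in A15 past the limit for the other strains is therefore built in. How often other genes that changed in 245 AMA-7 changed the same way in A15 was not computed. The counts are a description, and no likeness of A15 and 245 AMA-7 is read from them. The only gene with a symbol among them was met2, which in yeast is the symbol of a homoserine acetyltransferase of methionine synthesis. Its group means in 245 AMA-7 were 0.915 FPKM on day 39 and 17.5 FPKM on day 27. In A15 they were 32.1 FPKM on day 39 and 74.9 FPKM on day 27, in 219 30P 15.1 and 16.8 FPKM, and in 065 BP-8 6.66 and 7.54 FPKM. AGABI2DRAFT_195005 had the most negative change of the 97, -4.12 in 245 AMA-7 and -2.49 in A15, with -0.27 in 219 30P and -0.19 in 065 BP-8. AGABI2DRAFT_182943 had the most positive, 3.08 in 245 AMA-7 and 1.94 in A15, with -0.28 in 219 30P and -0.15 in 065 BP-8.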
